A study of Mus musculus with 5 samples.

Results

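Ackr3, Cxcr4, Cxcl12 and Dpp4 encode a chemokine axis, and their transcripts were followed in tibialis anterior (TA) muscle. The 4 genes were taken by name from a table of 17015 genes. They were chosen by the FPKM of Ackr3, already known to be higher in the libraries labelled skmNrip1-/-, together with its partners in the axis. Their differences between the groups are therefore given as a description, with no p-value. TA was taken from 8-week-old sedentary male mice on a C57BL/6 background. The libraries are 3 of WT control TA (labelled Ctrl) and 2 of skmNrip1-/- TA (labelled Nrip1KO). In skmNrip1-/- mice a Cre recombinase under the myogenin promoter deletes exon 4 of Nrip1 in skeletal muscle, so cells other than muscle fibers and differentiating precursors keep the gene. The controls were littermates without Cre. RNA came from whole muscle of sedentary animals in both groups, and fewer cells of a type cannot be told apart from less RNA per cell in such samples.

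CXCL12 is a chemokine made by stromal and vascular cells that guides migrating cells and holds progenitors in place. It signals through CXCR4, a G protein–coupled receptor, and in muscle this pair is known from the migration of precursor cells, the vasculature and nerve repair. ACKR3, formerly CXCR7, binds the same ligand and CXCL11, but it recruits arrestin without the usual G protein signal, and it removes CXCL12 by internalizing it for degradation. It also takes up adrenomedullin and opioid peptides. DPP4, a cell surface dipeptidyl peptidase also known as CD26, trims the N terminus of CXCL12 and leaves a form that no longer activates CXCR4.

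In the GENCODE M21 annotation of GRCm38, Ackr3 (ENSMUSG00000044337) lies on the plus strand of chromosome 1 at 90203980 to 90216751, with 2 coding transcripts. Cxcr4 (ENSMUSG00000045382) is on the minus strand of the same chromosome at 128588199 to 128592293, also with 2 coding transcripts. Cxcl12 (ENSMUSG00000061353) is on the plus strand of chromosome 6 at 117168535 to 117181367, with 4 transcripts, of which 3 are coding. Dpp4 (ENSMUSG00000035000) is on the minus strand of chromosome 2 at 62330073 to 62412231, and 1 of its 6 transcripts is coding. The table held 1 value per gene, so isoforms could not be separated.

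The 250 bases before the start of Ackr3 and of Cxcr4 are shown because these are the receptors of the axis whose libraries did not overlap between groups. Both are from RefSeq on GRCm38.p6, at chr1:90203730-90203979 (plus strand) and chr1:128592300-128592549 (minus strand), written 5′ to 3′ on the strand of the gene. Capitals mark TATAAA on either strand.

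Ackr3: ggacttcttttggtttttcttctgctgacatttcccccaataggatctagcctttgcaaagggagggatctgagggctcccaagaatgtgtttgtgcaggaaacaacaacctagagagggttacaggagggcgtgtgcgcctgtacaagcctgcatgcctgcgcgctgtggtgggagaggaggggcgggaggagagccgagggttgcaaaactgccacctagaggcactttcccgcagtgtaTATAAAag

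Cxcr4: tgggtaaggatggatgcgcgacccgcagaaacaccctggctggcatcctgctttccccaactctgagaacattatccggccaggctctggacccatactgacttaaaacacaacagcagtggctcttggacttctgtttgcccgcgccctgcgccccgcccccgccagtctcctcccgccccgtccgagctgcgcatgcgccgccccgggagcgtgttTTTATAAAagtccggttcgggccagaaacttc

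Both windows held TATAAA close to the annotated start, beginning 8 bases upstream in Ackr3 and, as overlapping matches on the 2 strands, 32 and 30 bases upstream in Cxcr4. TATAAA was present in 12.4% of the 32851 RefSeq promoter windows of the same length. The GC box GGGCGG, searched on both strands, occurred 1 time in Ackr3, 3 times in Cxcr4 and 5 times in Cxcl12, and 32.7% of all windows held it. Dpp4 held TATAAA 227 bases upstream and an E-box, CANNTG, 126 bases upstream, a motif found in 66.2% of windows. The nuclear receptor half-site AGGTCA (14.0% of windows), the longer TCAAGGTCA that contains it (0.387%) and the hypoxia response core ACGTG (16.6%) were not among the letters of any of the 4 windows. GC content was 54.0% for Ackr3, 61.2% for Cxcr4, 64.4% for Cxcl12 and 43.6% for Dpp4, against a median of 52.4% over all windows.

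FPKM is the number of fragments scaled to transcript length and, here, to a relative size of each library. For the targeted gene Nrip1 (ENSMUSG00000048490) it was 4.64, 7.69 and 6.55 in the WT control libraries and 25.3 and 22.5 in those labelled skmNrip1-/-. This runs against the label of a knockout. Fragments of exon 4 could not be separated in a table with 1 value per gene, and every direction given for these libraries rests on their labels. Fabp3 and Actn3, picked after their values were seen, lay on the side that the labels would give. RIP140, the protein of Nrip1, is known to repress genes of oxidative fibers. Fabp3 of oxidative muscle was at 461 to 533 FPKM in WT control TA and at 1841 and 1890 in the libraries labelled skmNrip1-/-. Actn3 of fast fibers was at 2701 to 3558 against 1739 and 1744, without a call. Other fiber genes did not all lie on that side. Of 10 myofiber markers, 1 was higher without overlap (15.8% of all genes tested), 3 were lower (14.4%) and 6 overlapped. The higher one was Mb, which encodes myoglobin, at 4329 to 5157 FPKM against 7664 and 7764, without a call. Myh2 of oxidative fibers overlapped, at 223, 333 and 1102 FPKM against 363 and 406. So did Myh4 of fast fibers, at 6839 to 8478 against 6416 and 6910. The relative library size in the FPKM scaling was read from the steps between low FPKM values, and it is not total depth. It ranged from 0.818 in skmNrip1-/- replicate 1 to 1.08 in WT control replicate 2, with WT control replicate 1 set to 1. Tests covered the 12148 genes whose mean reached 0.5 FPKM. In the libraries labelled skmNrip1-/-, limma called 45 of them (0.37%) higher and 10 (0.0823%) lower, or 0.453% in either direction, at an adjusted p up to 0.05 and a fold change from 1.2 upward. The genes called higher numbered 24 and 17 without WT control replicates 1 and 3, and 8 and 6 without skmNrip1-/- replicates 1 and 2. Those called lower numbered 3 and 2 without WT control replicates 1 and 3, and 3 without skmNrip1-/- replicate 2.

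Ackr3, the scavenger receptor, was the member with the largest difference. In WT control replicates 1 to 3 its FPKM was 5.46, 5.91 and 4.74, against 19.5 and 21.6 in skmNrip1-/- replicates 1 and 2. Both libraries labelled skmNrip1-/- lay above every WT control library, and the lower of them was 3.31 times the highest control. The mean was 5.37 ± 0.588 FPKM (SD, n = 3) against 20.6 ± 1.46 (SD, n = 2), a 3.83-fold difference. On the log2(FPKM + 0.1) scale the difference was 1.92 (standard error 0.13), the 40th from the highest of 12148 genes. Ackr3 is among the 0.37% of all genes tested that were called higher, but it was chosen for this difference, so the call is no evidence about it. Leaving out each library in turn kept the difference between 1.84 and 1.99.

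The Ackr3 difference also moved the gene within each library. Among all genes of a library, it stood at the 60.7th to 64.5th percentile of FPKM in WT control TA and at the 83.1st to 84.6th percentile in the libraries labelled skmNrip1-/-. With the annotated length of its longest transcript, 3065 nucleotides, the FPKM steps put the number of fragments at about 648 to 878 in WT control libraries and at 2166 and 2855 in those labelled skmNrip1-/-. These are estimates, since the transcript lengths behind the FPKM are not given.

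Cxcr4, the receptor that signals for CXCL12, had a lower level and a smaller difference. The FPKM was 1.24, 1.58 and 1.22 in WT control TA, and 1.77 and 2.01 in the libraries labelled skmNrip1-/-. The groups did not overlap, but the lowest library labelled skmNrip1-/- was only 1.12 times the highest control, WT control replicate 2. Means were 1.35 ± 0.200 (SD, n = 3) and 1.89 ± 0.172 (SD, n = 2), a ratio of 1.40. The log2 difference of 0.46 (standard error 0.19) ranked 689th from the highest, and Cxcr4 was not called. Groups that did not overlap, with the libraries labelled skmNrip1-/- above, were found for 15.8% of all genes tested. About 91 to 128 fragments stood behind each control value, and about 106 and 143 behind the others. Red blood cell transcripts were also higher in the libraries labelled skmNrip1-/-, without a call. The summed FPKM of 5 blood markers (hemoglobins and Alas2) was 511 to 764 in WT control TA and 827 to 996 in the libraries labelled skmNrip1-/-, with all 5 genes above 0 in log2 difference, 4 of them without overlap and none called or at 0. The sums of 10 leukocyte markers, which include cells that carry CXCR4, overlapped, at 14.5 to 25.6 and 18.4 to 22.2 FPKM. The part of blood in the Cxcr4 values was not tested.

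Cxcl12, the ligand, differed between the groups by less than its spread. It stood at 19.9, 20.9 and 17.1 FPKM in WT control TA and at 18.9 and 20.8 FPKM in the libraries labelled skmNrip1-/-. Both of the latter lay inside the range of the controls. The means of 19.3 ± 1.93 (SD, n = 3) and 19.9 ± 1.39 (SD, n = 2) gave a log2 difference of 0.05 (standard error 0.12). About 4056 to 5960 fragments a library stood behind these values. Leaving out each library in turn moved the difference between -0.04 and 0.12, so its sign is not settled.

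Dpp4, the protease that trims CXCL12, was the lowest of the 4 genes. Its FPKM was 0.693, 0.610 and 0.664 in WT control TA. In skmNrip1-/- replicates 1 and 2 it was 0.840 and 0.528, values that lay on either side of all 3 controls. The mean went from 0.656 ± 0.0420 (SD, n = 3) to 0.684 ± 0.221 (SD, n = 2), and the log2 difference was 0.03 (standard error 0.27). Without skmNrip1-/- replicate 1 the difference was -0.27, and without replicate 2 it was 0.32, so the sign depended on the library. When FPKM were rescaled to an equal sum in every library (TPM), the median of all genes moved by -0.29, and relative to that median Dpp4 was at 0.06, Cxcl12 at 0.04, Cxcr4 at 0.47 and Ackr3 at 1.91.

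**Figure D1:**
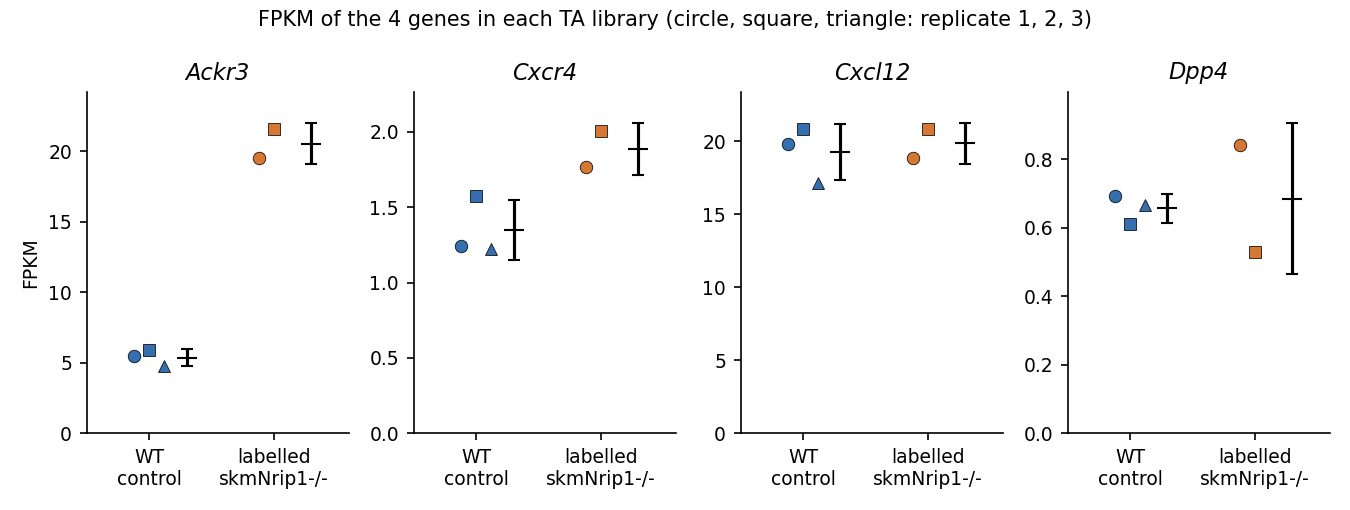
FPKM (vertical axes, from 0, scaled separately) of Ackr3, Cxcr4, Cxcl12 and Dpp4 in 3 WT control libraries (blue) and 2 libraries labelled skmNrip1-/- (orange), with the mean ± SD of each group as black bars. The Ackr3 points at 19.5 and 21.6 stand far above the controls, those of Cxcr4 just above, and those of Cxcl12 and Dpp4 overlap.

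Levels could be ordered per length, since FPKM are divided by transcript length. In every WT control library the order was Cxcl12, Ackr3, Cxcr4 and Dpp4, with no overlap between neighbors. In the libraries labelled skmNrip1-/-, Ackr3 stood just above Cxcl12 within each library (19.5 against 18.9 FPKM in replicate 1 and 21.6 against 20.8 in replicate 2), although the ranges of the 2 genes over libraries overlapped. Cxcr4 and Dpp4 kept their places below them. Expressed within a library, the FPKM ratio of Ackr3 to Cxcl12 was 0.275, 0.283 and 0.277 in WT control TA and 1.03 and 1.04 in the libraries labelled skmNrip1-/-. Since Ackr3 was chosen for its difference and Cxcl12 was near level, this ratio restates that difference and is no further result. The FPKM ratio of Ackr3 to Cxcr4, the scavenging to the signaling receptor, was 4.40, 3.74 and 3.87 against 11.1 and 10.7, and the same holds for it. The ratio of Cxcl12 to Cxcr4, the ligand to its signaling receptor, was 16.0, 13.2 and 14.0 against 10.7 and 10.4. In this ratio, which does not contain Ackr3, the libraries labelled skmNrip1-/- lay below the controls, as the Cxcr4 values given above already imply.

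Libraries ranked alike for the receptors and the ligand. Ackr3, Cxcr4 and Cxcl12 were each highest in WT control replicate 2 and lowest in replicate 3, and each was higher in replicate 2 than in replicate 1 of those labelled skmNrip1-/-. Dpp4 did the opposite in that it was lowest in WT control replicate 2 and lower in replicate 2 labelled skmNrip1-/-. By the size read from FPKM steps, WT control replicate 2 was also the largest library, and skmNrip1-/- replicate 1 the smallest. The part of this size, which is not total depth, in the order was not tested.

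**Figure D2:**
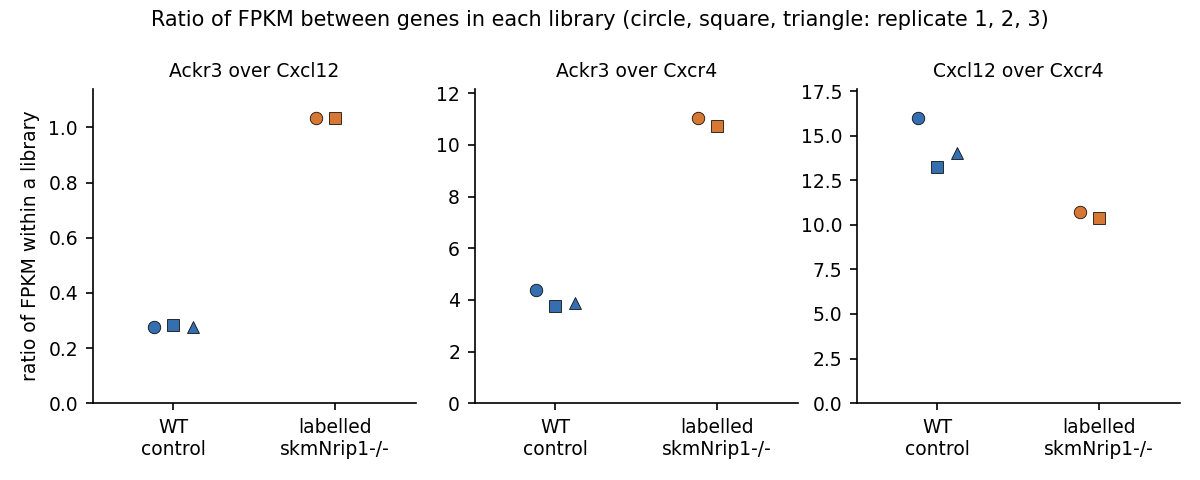
Ratio of FPKM within each library (vertical axes, from 0, no unit) for Ackr3 over Cxcl12, Ackr3 over Cxcr4 and Cxcl12 over Cxcr4, in 3 WT control libraries (blue) and 2 libraries labelled skmNrip1-/- (orange). The Ackr3 over Cxcl12 points cluster between 0.275 and 0.283 and between 1.03 and 1.04.

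The partners of the axis were described with 14 gene lists of 189 genes, of which 162 were in the table and 119 passed the minimum of 0.5 FPKM. None of the 119 was called by limma in either direction, where 0.453% of all genes tested were called. At an unadjusted p up to 0.05, 6 of them were higher (6.57% of all genes tested) and 9 were lower (5.33% of all genes tested), which is 12.6% of the list genes against 11.9% of all genes. The median log2 difference of these genes was -0.01, and that of all genes -0.00.

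**Figure D3:**
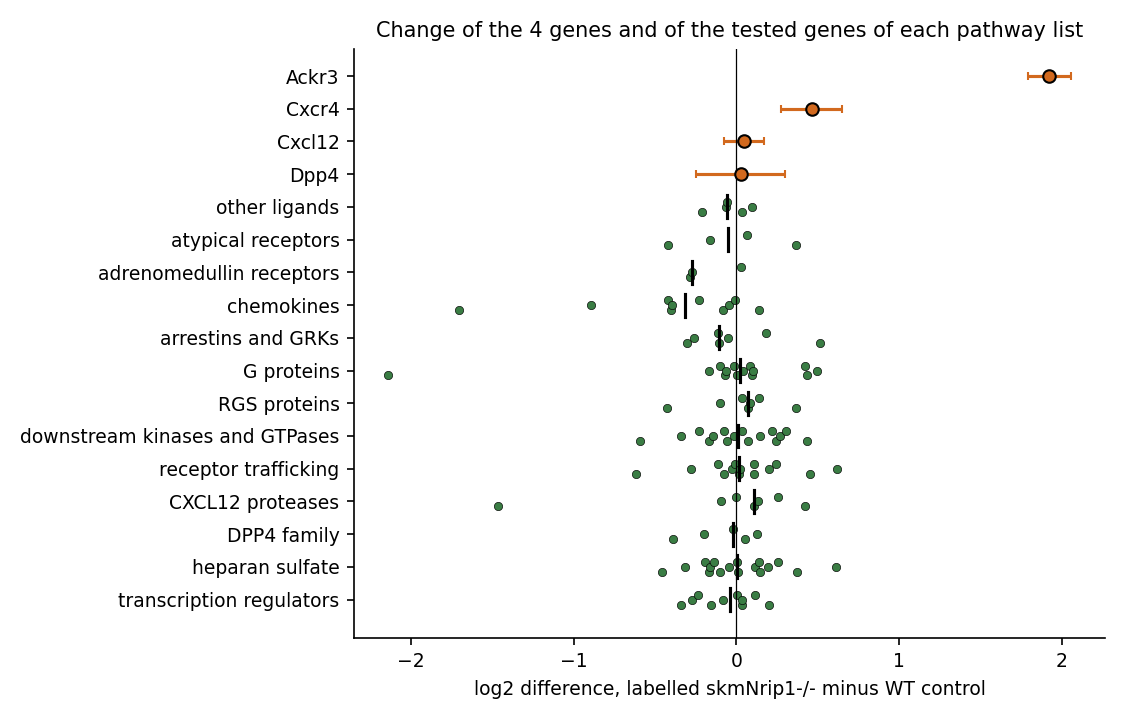
Log2 difference, libraries labelled skmNrip1-/- minus WT control (horizontal axis), of the 4 genes (orange, bars are ± 1 standard error) and of each tested gene of the pathway lists (green, black line at the list's median). Ackr3 at 1.92 lies to the right of every list gene, and the lists spread around 0.

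Other ligands of the receptors overlapped between the groups. Of 10 listed, 5 were tested, with a median of -0.06. Mif, a cytokine that binds CXCR4 and ACKR3, was at 92.3, 70.4 and 82.5 FPKM in WT control TA and at 81.9 and 74.3 in the libraries labelled skmNrip1-/-. Adm, which encodes adrenomedullin, was at 2.33, 1.80 and 1.91 against 2.26 and 1.62. For both genes the groups overlapped. Cxcl11, the second chemokine ligand of ACKR3, was at 0.127 to 0.232 FPKM in all 5 libraries and was not tested. The highest log2 difference of the list was 0.10 (standard error 0.10) for Hmgb1, an alarmin that forms a complex with CXCL12, and the lowest -0.21 (standard error 0.17) for Cxcl14, a chemokine that binds CXCR4. The Hmgb1 value became -0.20 after rescaling to TPM.

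Ackr3 had a larger difference than any tested gene listed with the atypical receptors, but it was chosen for that difference. Ackr1, the erythrocyte and venular chemokine binder, had a log2 difference of -0.42 (standard error 0.27), with 1.07, 0.866 and 1.13 FPKM against 0.575 and 0.932. Ackr2 and Ackr4, which scavenge other chemokines, did not pass the minimum. Ccrl2 was at 6.34 to 7.54 FPKM, and Cd74, a receptor for MIF, at 15.9 to 21.2, both with overlapping groups. Cd44, a hyaluronan receptor that works with CD74, had the highest log2 difference of the 4 tested, 0.37 (standard error 0.31). None was called by limma, and none had an unadjusted p of 0.05 or less.

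Among the adrenomedullin receptors, which share a ligand with ACKR3, 3 of 4 were tested and none was called. Calcrl, the receptor itself, differed by 0.03 (standard error 0.24), a value that became -0.16 without WT control replicate 1, -0.06 without skmNrip1-/- replicate 1 and -0.26 after rescaling to TPM. Ramp1, a subunit that steers CALCRL toward calcitonin gene-related peptide, was at 25.5, 27.0 and 22.0 FPKM against 19.2 and 21.5. Of the 3, Ramp1 alone had groups that did not overlap, and its log2 difference was -0.29 (standard error 0.13). Lower values without overlap were found for 14.4% of all genes tested.

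The chemokine system around the axis was sparse in TA. Of 17 other signaling chemokine receptors listed, 10 were in the table and none passed the minimum. Ccr2, a monocyte receptor, had the highest value in a single library among them, 0.703 FPKM in WT control replicate 2. Cxcr4 was thus the one signaling chemokine receptor here above a mean of 0.5 FPKM. Of 34 other chemokines listed, 10 were tested, with a median log2 difference of -0.31. Of these 10, 1 was above 0, Ccl11, a chemokine for eosinophils, at 0.14 (standard error 0.17), or -0.16 after rescaling to TPM. The lowest was Ccl24, which also draws eosinophils, at 0.536, 0.909 and 0.828 FPKM in WT control TA and 0.128 and 0.193 in the libraries labelled skmNrip1-/-. These groups did not overlap, and the log2 difference was -1.70 (standard error 0.35), which was not called (adjusted p = 0.137 from limma). With a mean of 0.160 FPKM in the libraries labelled skmNrip1-/-, Ccl24 passed the minimum of 0.5 FPKM only through the controls. It fell below the minimum after rescaling to TPM. The size of its difference depended on the pseudocount, at -0.59 with 1 and -2.16 with 0.01. Beyond the rule for named genes, Ccl25 (3.48, 3.66 and 4.64 against 1.79 and 2.36 FPKM, adjusted p = 0.156 from limma) and Ccl21a (4.45, 4.81 and 3.73 against 3.45 and 2.96, adjusted p = 0.372 from limma) were the other chemokines with an unadjusted p of 0.05 or less, both lower.

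The arrestins and receptor kinases (GRKs) that act on the receptors, and G protein subunits, were tested next. Arrb1, an arrestin that binds phosphorylated receptors, was at 2.72, 2.69 and 3.13 FPKM in WT control TA and at 4.58 and 3.67 in the libraries labelled skmNrip1-/-. The groups did not overlap, and the log2 difference was 0.52 (standard error 0.15), without a call (adjusted p = 0.282 from limma). Arrb2, the arrestin most tied to ACKR3, overlapped between groups at 3.14 to 4.71 FPKM, and Grk2, a kinase that phosphorylates both receptors, at 19.3 to 23.5. Grk5 had the lowest value of the 7 arrestins and GRKs, -0.30 (standard error 0.23). Of 14 G protein subunits, none was called and the median was 0.02. Gnai2, an inhibitory alpha subunit that CXCR4 couples to, was at 43.0 to 50.5 FPKM in all 5 libraries. Gnb3, a beta subunit, had the lowest log2 difference of all pathway genes tested, -2.14 (standard error 0.48, adjusted p = 0.173 from limma), at 1.16, 0.795 and 0.887 FPKM against 0.293 and 0.0409. Its mean in the libraries labelled skmNrip1-/- was 0.167 FPKM, so it passed the minimum of 0.5 FPKM only through the controls. The size of its difference depended on the pseudocount, at -0.74 with 1 and -2.93 with 0.01. Gng2, a gamma subunit, had the highest of the G proteins, 0.50 (standard error 0.35).

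RGS proteins, which speed the shutdown of G proteins, had a median of 0.07 over 7 tested of 11 listed, from -0.43 (standard error 0.37) for Rgs19 to 0.37 (standard error 0.29) for Rgs12. Kinases and GTPases downstream of CXCR4 had a median of 0.01 over 16 tested of 23. The range ran from the tyrosine kinase Src at -0.59 (standard error 0.42) to Stat3, a transcription factor of cytokine signaling, at 0.43 (standard error 0.22). The 14 genes of receptor trafficking had a median of 0.02. Dtx3l, an E3 ligase that curbs CXCR4 degradation, was at 1.55, 2.15 and 1.21 FPKM against 2.41 and 2.60, the highest of this list at 0.62 (standard error 0.24, adjusted p = 0.391 from limma). Rab4a, a GTPase of fast recycling, was the lowest at -0.62 (standard error 0.22, adjusted p = 0.356 from limma). Neither was called.

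Control of the ligand outside the cell was described by 3 lists. Among the proteases that cut CXCL12, 7 of 11 were tested and the median was 0.11. The highest was Mmp14, a membrane-bound metalloproteinase, at 0.42 (standard error 0.28). Mmp13, a collagenase, was the most scattered gene, at 2.01, 5.70 and 4.36 FPKM in WT control TA and at 0.0842 and 10.1 in the libraries labelled skmNrip1-/-. Its log2 difference was -1.47 (standard error 1.51), and without skmNrip1-/- replicate 1 it was 1.43. The same library pair was split in Ctsk, a collagen-degrading cathepsin, at 3.92 and 21.7 FPKM, and in the summed FPKM of 5 tendon markers, at 56.2 and 127. Among the relatives of DPP4, 5 of 7 were tested, from -0.39 (standard error 0.15) for Dpp7 to 0.12 (standard error 0.13) for Prep, the latter -0.17 after rescaling to TPM. Fap, the closest relative of Dpp4 and its neighbor on chromosome 2, was at 2.15, 2.50 and 2.98 FPKM against 1.73 and 2.73, which overlap.

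Heparan sulfate chains hold CXCL12 at the cell surface and in the matrix, and 17 of the 19 genes listed for their cores and enzymes were tested, with a median of 0.00. Ndst1, which adds sulfate to the chain, was at 11.6, 16.5 and 15.3 FPKM in WT control TA and at 20.8 and 23.2 in the libraries labelled skmNrip1-/-. Gpc1, a core protein anchored to the membrane, went the other way, at 84.0, 73.8 and 92.1 FPKM against 60.4 and 60.6. In neither gene did the groups overlap. Their log2 differences were 0.61 (standard error 0.17, adjusted p = 0.249 from limma) and -0.46 (standard error 0.12, adjusted p = 0.243 from limma), and neither was called. Groups failed to overlap in 7 of the 17, or in 35 of all 119 pathway genes tested (29.4%), against 30.2% of all genes. Of the genes listed as transcription regulators of the axis, which are transcription factors and Vhl, 10 of 12 were tested with a median of -0.04. They ranged from Relb, a subunit of NF-κB, at -0.34 (standard error 0.16) to Hif1a, the hypoxia factor, at 0.20 (standard error 0.15), or -0.094 for Hif1a after rescaling to TPM.

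**Figure D4:**
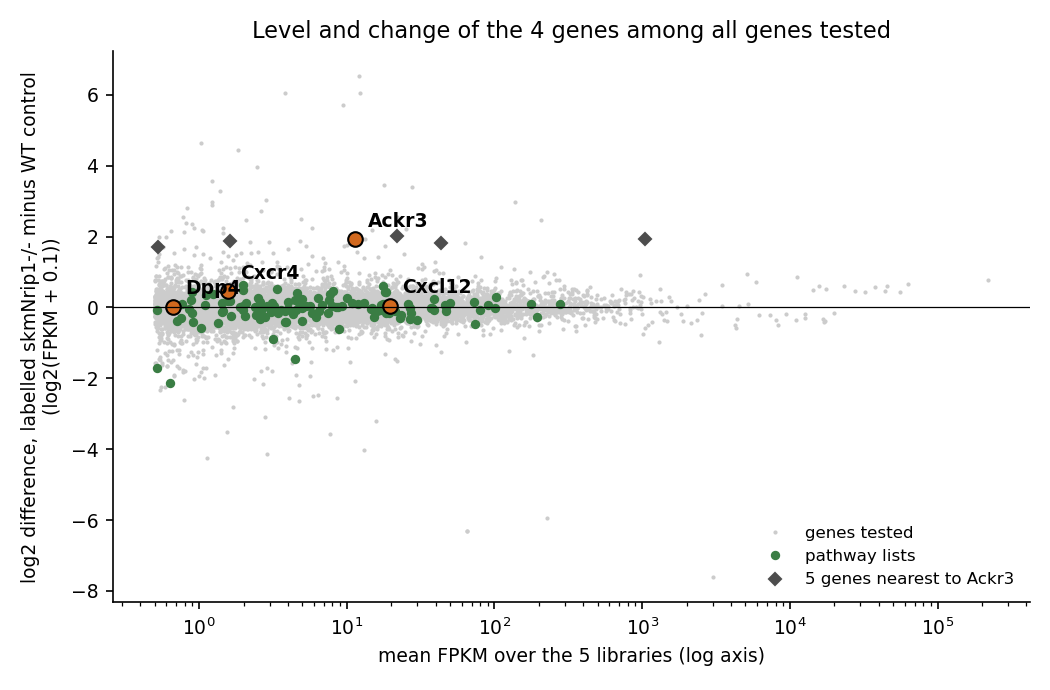
Mean FPKM over the 5 libraries (horizontal log axis) against the log2 difference, libraries labelled skmNrip1-/- minus WT control, for the 12148 genes tested (gray), the pathway genes (green), the 5 genes nearest to Ackr3 (dark diamonds) and the 4 genes (orange). Ackr3 stands at 1.92 among the higher values, with Cxcr4 at 0.46 and Cxcl12 and Dpp4 near 0.

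Markers of the cells that could carry these genes were then compared, and no gene of the 11 marker lists was called or was at 0 in all libraries. Myofiber markers were far the most abundant, with a summed FPKM of 71026 to 93927 over 10 genes in WT control TA and 68496 to 71079 in the libraries labelled skmNrip1-/-. Endothelial markers, from cells in which ACKR3 and CXCL12 are known, summed to 153 to 171 FPKM in the controls and to 144 in both others. Of the 10 genes 8 were below 0, and 1 was lower without overlap, as were 14.4% of all genes tested. Pericyte and smooth muscle markers (165 to 194 and 169 to 184) and fibro-adipogenic progenitor markers (322 to 489 and 407 to 428), from the stromal cells that make CXCL12, overlapped between groups.

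Satellite cell markers, from the muscle stem cells that use CXCR4, summed to 11.0 to 13.3 FPKM in WT control TA and to 9.23 and 13.0 FPKM in the others. Pax7, their defining gene, was at 0.383, 0.386 and 0.384 FPKM against 0.237 and 0.314, below the minimum for a test. Of the 7 genes listed, 5 were tested and none was called. They went both ways, with 3 below 0, among them Cdh15, an adhesion molecule of these cells, at -0.56 (standard error 0.15), and 2 above 0, Chodl at 0.19 (standard error 0.33) and Chrdl2 at 1.14 (standard error 0.31). Chrdl2 was at 0.656, 0.452 and 0.345 FPKM in WT control TA and at 0.989 and 1.36 in the libraries labelled skmNrip1-/-, which did not overlap. Its control mean of 0.485 FPKM was below the minimum of 0.5 FPKM, which it passed only through the other group. Of the 5 tested, 1 was higher without overlap (15.8% of all genes tested). Another 2, Cdh15 and Myf5, were lower without overlap (14.4%). Lymphatic (2.94 to 5.48 and 2.88 to 4.07), Schwann cell (18.2 to 27.4 and 15.3 to 23.3), adipocyte (7.41 to 13.9 and 11.9 in both) and tendon markers (46.1 to 70.6 and 56.2 to 127) overlapped as well. Of the 11 lists, only the blood and endothelial markers had sums that did not overlap between groups. The part of any of these cells in the Ackr3 values was not tested.

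**Figure D5:**
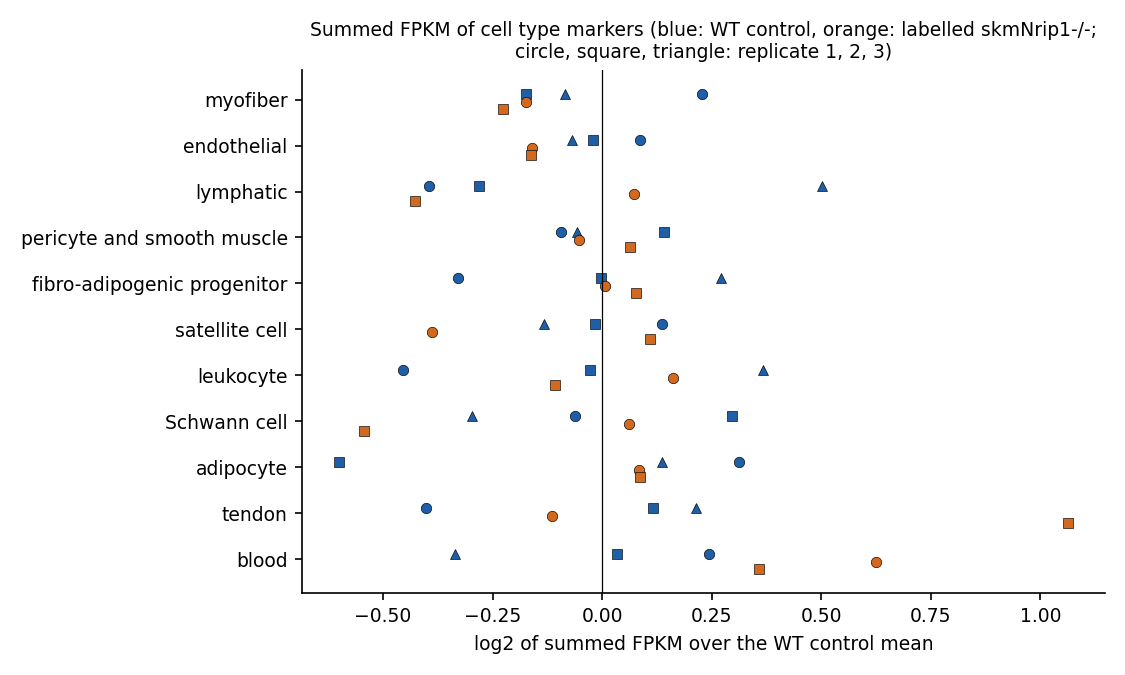
Log2 of the summed FPKM of each marker list over its WT control mean (horizontal axis) in 3 WT control libraries (blue) and 2 libraries labelled skmNrip1-/- (orange). The blood sums of 827 and 996 FPKM lie to the right of the controls, the endothelial sums of 144 FPKM lie to the left, and tendon replicate 2 stands out at 127 FPKM.

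The 5 genes with the pattern most like Ackr3 were found by the Euclidean distance between profiles of log2(FPKM + 0.1) over the 5 libraries, each centered on its mean. They were Ptp4a1 (ENSMUSG00000117310), a protein tyrosine phosphatase, at a distance of 0.15, Fabp3, a fatty acid binding protein of oxidative muscle and heart, at 0.16, Tmem37, a calcium channel gamma-like subunit, at 0.28, Baiap2l1, an actin regulator, at 0.39, and Cds1, an enzyme of phospholipid synthesis, at 0.43. Ptp4a1 was at 21.4, 22.8 and 19.7 FPKM in WT control TA and 69.3 and 82.9 in the libraries labelled skmNrip1-/-, the same library order as Ackr3. Fabp3, at 483, 533 and 461 against 1890 and 1841 FPKM, shared the order in the controls. Their log2 differences ran from 1.71 for Baiap2l1 to 2.02 for Tmem37, and as they were picked for this likeness the values carry no test. The partners of Ackr3 were farther off, with Cxcr4 at 1.61 (rank 443), Cxcl12 at 2.06 (rank 4130) and Dpp4 at 2.16 (rank 6191).

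Genes next to the 4 members on the chromosome were looked at after the members' values were known. Within 500 kb of Ackr3, 3 of 4 genes in the table were tested and none was called. Asb18, a muscle ankyrin repeat gene, differed by 0.24 (standard error 0.22), Agap1 by 0.15 (standard error 0.15) and Cops8 by -0.12 (standard error 0.11). None of these 3 values came near the 1.92 of Ackr3, but Ackr3 was chosen for that difference, so this is no further result. Around Cxcr4, 6 genes were tested and none was called, from Gm6170 at -0.49 to Zranb3, a DNA translocase gene, at 0.80 (standard error 0.15, adjusted p = 0.124 from limma), a value above that of Cxcr4 itself. The 2 tested neighbors of Cxcl12 differed by 0.01 and 0.60, and the 3 of Dpp4 by -0.20 to 0.25, with no call among them.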

How the data were processed

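TA of 5 mice was profiled by RNA-seq. RNA was prepared with an RNeasy kit, libraries with the NEBNext Ultra kit, and paired reads of 150 bp were quantified by the authors with Salmon 1.10.2 on mm10 and summarized with tximport. The authors deposited FPKM per gene and library, and how these were computed is not stated. Equal median ratios of 1.00 in all 5 libraries show that they were scaled by the median of ratios. Log2 fold changes and adjusted p-values that the authors made with DESeq2 1.44.0 are in the same deposited table and were not used. Libraries were grouped by their labels. The legend of the study gives 3 mice per group, and 2 libraries labelled skmNrip1-/- were analysed here. Nothing in the table gives fragment totals. The relative size of each library in the FPKM scaling was estimated from FPKM steps of genes with a single transcript of at least 1500 nucleotides. Between 99.1% and 100% of these low values lay within 0.1 of a whole multiple.

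Differences were fitted with limma 3.58.1 in R 4.3.3 (lmFit, eBayes with trend) on log2(FPKM + 0.1) over all 5 libraries. The 12148 genes whose mean reached 0.5 FPKM were tested, with p-values adjusted over all of them by the Benjamini-Hochberg method. A fold change on this scale understates that of low genes. The fit was tested on simulated data. Python 3.11.15, pandas 2.3.3, numpy 2.4.6 and matplotlib 3.10.9 were used for tables and plots. Positions are from GENCODE M21, which holds 16996 of the gene IDs. Members and gene lists were chosen with earlier results of these data known. Named are the members, Nrip1, the highest and lowest tested gene of each pathway list, called genes of any list and the 5 genes nearest to Ackr3. Other genes of the lists, and neighbors within 500 kb, were added after their values were seen. Alternatives were pseudocounts of 1 and 0.01, no minimum or a minimum of 1 FPKM, TPM, median-of-ratios scaling, robust eBayes or eBayes without trend, a block for the replicate number, each library left out, no fold threshold, and an adjusted p of 0.01. Median-of-ratios scaling could change little, since the FPKM were already scaled in that way. The differences with the block equal those without WT control replicate 3, at 1.84 for Ackr3 in both, so these 2 are not separate checks.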

Additional observations from a re-analysis of the deposited data

How the results depend on the processing

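Over all alternatives the log2 difference of Ackr3 ranged from 1.62 to 1.99, that of Cxcr4 from 0.18 to 0.58, that of Cxcl12 from -0.25 to 0.12 and that of Dpp4 from -0.27 to 0.32. Ackr3 was at 1.76 with a pseudocount of 1. Rescaling to TPM, which moved the median of all genes by -0.29, gave 1.62 for Ackr3, 0.18 for Cxcr4, -0.25 for Cxcl12 and -0.23 for Dpp4, and negative values for Calcrl (-0.26), Ccl11 (-0.16), Hif1a (-0.094), Hmgb1 (-0.20) and Prep (-0.17). With TPM, 30 genes were called higher and 63 lower, against 45 and 10. Without eBayes trend 22 were higher and 3 lower, and at an adjusted p of 0.01 there were 14 and 3. Leaving out each library in turn gave 6 to 51 genes called higher and 2 to 15 lower. It moved Ackr3 between 1.84 and 1.99, Cxcr4 between 0.38 and 0.58, Cxcl12 between -0.04 and 0.12, Dpp4 between -0.27 and 0.32, Calcrl between -0.16 and 0.23 and Mmp13 between -4.36 and 1.43. The causes of these changes were not tested. No pathway gene was called under any alternative run. Of 441 values of the 32 named genes that are not members, 419 kept their sign and side of the threshold. Of the rest, 13 lost and 1 gained a call in the same direction, and 8 changed sign. Among these genes only Nrip1, Ptp4a1, Fabp3, Tmem37 and Cds1 were called before any alternative, so only they could lose a call. Most of the 419 values are of genes that were not called and stayed so.

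Replicate numbers mark different mice, and same-numbered libraries deviated together only weakly (correlations of 0.06 and 0.10 for numbers 1 and 2). With the replicate number as a block, 18 genes were called higher and 4 lower. Precision is limited by the small number of libraries and, for Cxcr4 and Dpp4, by counts of about 91 to 170 fragments a library.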
